A study of Mus musculus with 3 samples.

Results

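Cells were examined that carried transcripts of Cd8a or Cd8b1, the genes of the 2 chains of the CD8 coreceptor, in the first of 3 single-cell runs of early thymocytes. In that run, cells with at least 1 unique molecular identifier (UMI, 1 counted molecule) of Cd8a or Cd8b1 were taken when they had 0 UMIs of Il2ra, which encodes CD25, at most 1 of Trdc, the constant gene of the T cell receptor δ chain, and 0 of Cd44 and Cd79a. This gave 462 of 5516 cells (8.38%), and the 3 runs held 21879 cells. They are called Cd8-positive DN4-like cells below. Each run was 1 10x library of thymocytes from C57BL/6 mice, labelled week 6, with 4 thymi pooled, and had been depleted of CD4 and CD8 expressing cells with magnetic beads before the sort. Total double negative (DN) thymocytes were sorted for the first run together with TCRγδ+ cells. The DN cells were sorted as negative for TCRβ, NK1.1, B220, CD11b, CD11c, CD4 and CD8. The second run held the DN1 and DN2 stages and no TCRγδ+ cells, and the third a mixture, made after sorting, of DN1 and DN2, of DN3 and of TCRγδ+ cells. No mouse carried an engineered allele or received a treatment that the labels name. The deposited counts summed to 39947415 UMIs in 5527 cells of the first run, 52797915 in 8887 cells of the second and 98533329 in 8869 cells of the third.

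The DN stages are told apart by the surface proteins CD44 and CD25. DN3 thymocytes rearrange the T cell receptor β locus and depend on Notch signals, and a β chain that pairs with the pre-T cell receptor α chain, encoded by Ptcra, takes them through β-selection. They then divide rapidly, lose CD25 and Notch target genes as DN4 cells, and express CD8 and CD4 as double positive (DP) cells, where the receptor α locus is rearranged.

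DN3-like and Cd8-negative cells of the same run were set beside them. DN3-like cells had at least 1 UMI of both Il2ra and Ptcra (1248 cells, 22.6% of the run), with no limit on Cd8. Cd8-negative cells met every limit of the Cd8-positive cells apart from that on Cd8 (752 cells, 13.6%). Each group was split by the summed UMIs of Mki67 and Top2a, which are expressed in dividing cells, into low-cycling (0 UMIs) and cycling (3 or more). Levels are CPM, the counts of a gene summed over the cells of a group and scaled to the same total of counts in every group. Only the 3′ end of each molecule was counted, so that CPM needs no correction for gene length. Intervals are exact 95% intervals (Poisson for levels, Clopper-Pearson for shares of cells) and cover counting error only. The cells of a group come from 1 library, so no test was possible between groups, and the differences below are sizes without a p-value. Genes at 20 CPM or more over the groups compared were kept, differences are log2 ratios of CPM + 1, and a difference of at least 2-fold was counted. The 9 genes that defined the groups, among them Cd8a, Cd8b1, Il2ra, Trdc and Ptcra, were left out of these counts.

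The Cd8-positive DN4-like cells were deeper than the other groups, with a median of 8235 UMIs and 2503 genes per cell, against 5341 UMIs in DN3-like and 3823 UMIs in Cd8-negative cells. A rule that asks for a UMI of Cd8 favors deep cells, while limits on Il2ra and Trdc favor shallow ones. The median mitochondrial share was 2.45%, against 3.11% in DN3-like cells. Among the barcodes of the first run, 72 also occurred in the second and 3 in the third, and 5 of the 462 cells carried one of the former. Removal of all these barcodes left 94 low-cycling and 247 cycling Cd8-positive cells.

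Cd8b1 was the main transcript of the pair. It stood at 259.6 CPM (244 to 276) in the Cd8-positive DN4-like cells and Cd8a at 91.8 CPM (82.7 to 102). Both genes lie on chromosome 6 of GRCm38, Cd8b1 (ENSMUSG00000053044) at 71322788 to 71337494 and Cd8a (ENSMUSG00000053977) at 71373427 to 71379173, on the same strand and 35.9 kb apart. Of the 462 cells, 263 (56.9%, 52.3% to 61.5%) had UMIs of Cd8b1 only, 46 (9.96%) of Cd8a only and 153 (33.1%) of both. The median cell had 2 UMIs of the pair and the highest had 20. The rule chose the cells on these values, so they describe the cells and support nothing. The Cd8a promoter is shown because Cd8 transcripts define the cells, with the E boxes (CANNTG, which reads the same on both strands) in capitals. It spans 300 bases around the RefSeq start, chr6:71373177-71373476 of GRCm38.p6 on the plus strand.

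Cd8a: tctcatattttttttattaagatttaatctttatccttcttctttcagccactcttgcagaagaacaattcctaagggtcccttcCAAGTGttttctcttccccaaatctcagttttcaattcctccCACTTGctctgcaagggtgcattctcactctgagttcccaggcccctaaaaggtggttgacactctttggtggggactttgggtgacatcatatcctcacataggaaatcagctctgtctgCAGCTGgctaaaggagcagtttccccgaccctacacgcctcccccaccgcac

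It held 3 E boxes, and 17.6% of the 32851 RefSeq promoters of this length held 3 or more. The letters TGTGGT, the core that Runx factors bind, were not in this window on either strand. E proteins are among the factors that bind E boxes, and their genes Tcf3 and Tcf12 are described below.

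Free RNA in the droplets can put a UMI of Cd8 into a cell that does not transcribe it. For comparison, cells with UMIs of Il2ra and Kit and none of Ptcra, which resemble the earlier DN2 stage, were examined in the same run. A UMI of Cd8 was found in 8 of these 82 cells, which is 9.76% (4.31% to 18.3%) at a median of 5310 UMIs. These 8 cells held 22 Cd8 UMIs together, 19 of Cd8b1 and 3 of Cd8a, so the UMIs were not all single ones. Their source was not tested, and the share is not taken as a level of free RNA. Of the 1214 cells that met the limits other than that on Cd8, 38.1% had one at a median of 6028 UMIs. At 2000 UMIs per cell, the shares were 4.88% and 20.7%. Low-cycling DN3-like cells, at a median of 3422 UMIs, had a Cd8 UMI in 6.57% (4.78% to 8.78%), and cycling DN3-like cells, at 11808 UMIs, in 38.6% (33.8% to 43.5%). At 2000 UMIs per cell, these were 3.29% and 15.3%. In low-cycling DN3-like cells, Cd8b1 was at 16.5 CPM (12.0 to 22.2). In cycling ones it was at 77.2 CPM (69.7 to 85.2), so it was higher in the cycling DN3-like class beyond counting error. Scrublet, a doublet caller, placed 37.9% of cycling and 10.2% of low-cycling DN3-like cells among the most doublet-like of the run. Their removal took cycling DN3-like cells with a Cd8 UMI from 156 to 70, and those without one from 248 to 181. The part of doublets in the higher level was not tested. Single UMIs were the whole evidence in 160 of the 462 cells, while 302 had at least 2 and 141 at least 4.

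**Figure D1:**
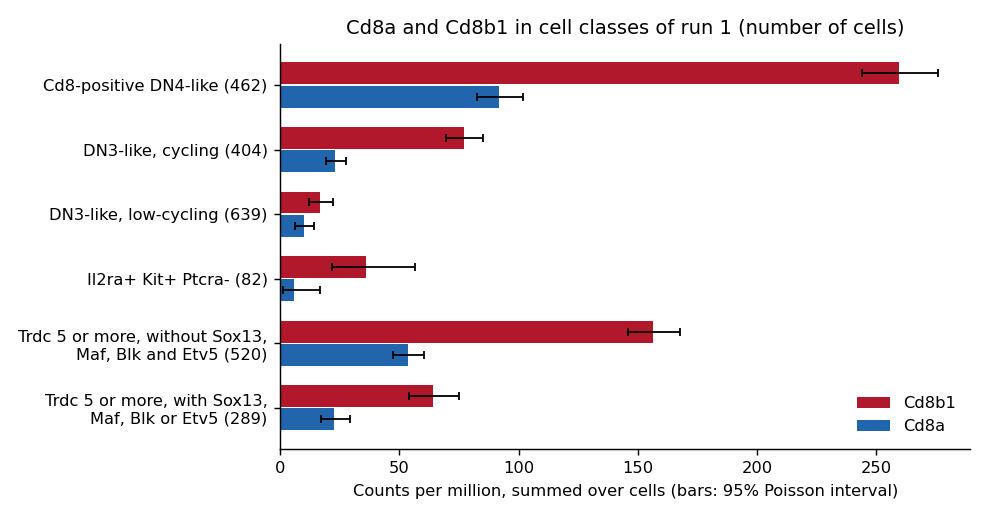
Levels of Cd8b1 (red) and Cd8a (blue) in CPM, summed over the cells of 6 classes of the first run, with exact 95% Poisson intervals and the number of cells in parentheses. Cd8b1 exceeds Cd8a in each class, and lies at 157 CPM in cells with Trdc but no UMI of Sox13, Maf, Blk and Etv5 and at 63.9 CPM in those with one.

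The limit on Trdc removed more cells than it kept. Of the 1607 cells with a Cd8 UMI, 1027 had at least 2 UMIs of Trdc, and 758 of these met all the other limits. DN3-like cells often had them too (659 of 1248). Among cells with at least 5 Trdc UMIs and no Il2ra, those without a UMI of the γδ genes Sox13, Maf, Blk and Etv5 (520 cells) had Cd8b1 at 157 CPM (146 to 168), and those with one (289 cells) at 63.9 CPM (54.2 to 74.9). The 758 excluded cells, at a median of 9838 UMIs, resembled the 462 in genes that no limit used. Hes1 was at 24.9 CPM in the excluded cells and 24.7 CPM in the chosen ones, Bcl2 at 30.7 against 23.2 CPM, and Nkg7 at 15.3 against 13.5 CPM. The chosen cells therefore stood for part of the Cd8-positive cells of this run. Just outside the limit on Il2ra were 68 cells with exactly 1 UMI of it, and these genes were higher in them than in the chosen cells, with Hes1 at 76.5 CPM, Bcl2 at 57.8 CPM and Nkg7 at 51.0 CPM.

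The genes that mark DN4 cells were examined next. Ptcra, which was free among the chosen cells, was at 118 CPM, and 238 of the 462 cells had a UMI of it. Cd4 was nearly absent, with UMIs in 6 of 462 cells (1.30%, 0.478% to 2.81%), 3 of 752 Cd8-negative and 9 of 1248 DN3-like cells. The chosen cells thus showed Cd8 but scarcely Cd4 transcripts. Cells with surface CD4 or CD8 had been removed by the beads and in the sort of DN cells. The scarcity of Cd4 was therefore partly set beforehand, and no stage is read from it. Cd28, a costimulatory receptor named as a marker of these cells, was at 105 CPM (79.2 to 136) in low-cycling Cd8-positive cells, 84.9 CPM in Cd8-negative cells. Its level in low-cycling DN3-like cells was 43.9 CPM (36.3 to 52.6). In cycling cells it was at 92.3 CPM (80.9 to 105), 78.4 CPM and 72.0 CPM (64.8 to 79.8), respectively. It was thus 2-fold higher than in DN3-like cells where cycling was low (log2 ratio 1.23) and not in cycling cells (0.35). In cells of 5000 to 10000 UMIs, neither stratum reached 2-fold, with log2 ratios of 0.21 and 0.88. Its intervals overlapped those of Cd8-negative cells in both strata.

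Markers of other cell types were examined as well. The sort of DN cells had excluded those with surface TCRβ, NK1.1, B220, CD11b or CD11c. Low levels of mature T, natural killer, B cell and myeloid markers were therefore partly set beforehand, and the values below only describe the cells. Of 6 B cell markers, Cd79b had 16.2 CPM and the other 5 had 0 counts. The rule had set Cd79a to 0, and Ms4a1 and Pax5 were among those it had not set. All 3 erythroid markers had 0 counts. DN1 markers summed to 1.75 CPM, with Kit the highest at 0.998 CPM and Cd34 at 0, while Cd44 was at 0 by the rule. The 9 markers of natural killer or innate cells summed to 33.2 CPM, led by Ccl5 at 16.2 CPM with Gzmb at 0. Their sums were 26.5 CPM in cycling Cd8-positive and 63.1 CPM in cycling DN3-like cells, and 14.7 CPM and 201 CPM in the low-cycling strata. Nkg7 made up 13.2 CPM and 56.1 CPM of the cycling sums and 12.8 CPM and 188 CPM of the low-cycling ones, so that the difference between the sums was mainly one of Nkg7. The 6 markers of mature T cells summed to 74.4 CPM, with 70.1 CPM against 158 CPM in the cycling and 88.1 CPM against 317 CPM in the low-cycling strata. The 6 myeloid or dendritic markers summed to 129 CPM, nearly all of it Cst3 at 121 CPM, with Siglech at 0. The 7 γδ markers summed to 349.9 CPM, led by Id3 at 170.0 CPM, with 321 CPM against 846 CPM in cycling cells and 462 CPM against 1525 CPM in low-cycling cells. They include Trdc, which the rule limited in the Cd8-positive cells alone, so that this difference was partly set by the rule.

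Transcripts of dividing cells were found in more of the Cd8-positive DN4-like cells. Mki67 and Top2a together had at least 3 UMIs in 251 of 462 cells (54.3%, 49.7% to 58.9%), in 22.2% (19.3% to 25.4%) of Cd8-negative and in 32.4% (29.8% to 35.0%) of DN3-like cells. After each cell was thinned to 2000 UMIs, which left out no cell of these groups, the shares were 10.8% (8.14% to 14.02%), 5.19% (3.71% to 7.02%) and 6.09% (4.83% to 7.56%). The choice at full depth favors deep cells, and cycling cells were the deeper ones. When all 3 groups were instead chosen after thinning, an alternative added after seeing the data, the shares were 12.9% (10.3% to 15.97%) of 572 Cd8-positive, 9.27% (8.16% to 10.5%) of 2480 Cd8-negative and 3.46% (2.03% to 5.49%) of 491 DN3-like cells. The intervals of the Cd8-positive and Cd8-negative cells then overlapped. The 462 cells comprised 94 low-cycling cells at a median of 5899 UMIs, 117 with 1 or 2 UMIs at 7485 and the 251 cycling cells at 9634. In DN3-like cells, the 639 low-cycling and 404 cycling cells had medians of 3422 and 11808 UMIs.

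The split did not make the low-cycling groups equal in the cell cycle. Of 16 DNA replication genes, 11 were at least 2-fold higher in low-cycling Cd8-positive than in low-cycling DN3-like cells, and their median log2 ratio was 1.17, against -0.02 for all 5138 genes kept, of which 3.44% were 2-fold higher. Of 14 mitosis genes outside the rule, 10 were at least 2-fold higher (median 1.22). Rrm2, a subunit of the enzyme that makes deoxyribonucleotides, was at 457 CPM against 81.4 CPM, and Ccne1, the cyclin that starts DNA replication, at 71.6 CPM against 8.25 CPM. In cycling cells, none of the 16 replication and 14 mitosis genes was 2-fold higher or lower, with medians of 0.28 and 0.31. The cycling comparison was therefore the better matched one, and the text leads with genes that differed in both.

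Against DN3-like cells, the Cd8-positive DN4-like cells were lower for far more genes than they were higher. Of 5138 genes kept, 177 (3.44%) were at least 2-fold higher and 419 (8.15%) at least 2-fold lower in low-cycling cells. In cycling cells, 0 (0%) were higher and 71 (1.38%) lower. In both strata at once, 0 (0%) were higher and 65 (1.27%) lower, so that 65 of the 71 genes lower in cycling cells were lower in low-cycling cells too. The groups were chosen on Il2ra, Ptcra and Cd8 in the same cells, so these shares describe them and nothing more is read from them. A gene could also reach the limit on low genes through the DN3-like cells alone, as Il7r, Cdkn1a, Nkg7, Pld4 and Dnmt3b did, which were below 20 CPM in cycling Cd8-positive cells, so counts of lower genes are partly set by it.

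**Figure D2:**
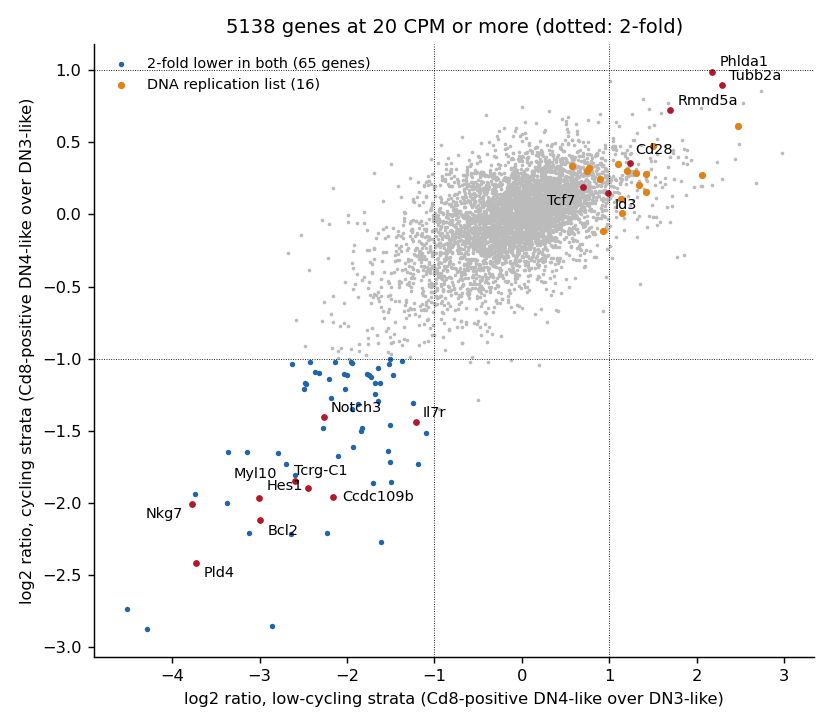
Each point is 1 of 5138 genes, with its log2 ratio of Cd8-positive DN4-like over DN3-like cells in the low-cycling strata (x axis) and the cycling strata (y axis), and dotted lines mark 2-fold. Blue points are the 65 genes lower in both, orange points the 16 DNA replication genes and red points named genes; no gene lies in the upper right corner.

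Of the genes at 50 CPM or more over the groups pooled, 23 were at least 2-fold lower in both strata. The 10 with the largest differences were Pld4, Bcl2, Nkg7, Hes1, Ccdc109b, Tcrg-C1, Myl10, Ifitm2, Tcrg-C4 and Akr1c13. Apart from Tcrg-C1, Myl10 and Tcrg-C4, these were below 50 CPM in both strata of Cd8-positive cells. They reached the limit through the DN3-like cells, so this ranking is partly set by it and only describes the groups. Bcl2 (chromosome 1, 106538178 to 106714274), which protects cells from apoptosis, was at 36.7 CPM (22.4 to 56.7) in low-cycling Cd8-positive cells and 299.7 CPM (279 to 321) in DN3-like cells. In cycling cells it was at 20.6 CPM (15.5 to 27.0) and 93.0 CPM (84.8 to 102). The log2 ratios were -3.00 and -2.12. Bcl2l1, which encodes the related protein Bcl-xL and serves survival at the DP stage, was at 30.0 CPM against 17.5 CPM in cycling cells (log2 ratio 0.75, or 1.86 among cells with 5000 to 10000 UMIs) and at 18.3 and 18.4 CPM in low-cycling cells. Bcl2 was thus the only one of 6 survival and death genes kept that was 2-fold lower in either stratum, beside 8.15% and 1.38% of all genes, while Bax, Bak1, Mcl1 and Trp53 stayed within 2-fold in both strata.

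The list of 8 Notch pathway genes also holds Il2ra and Ptcra, and 4 of it were kept outside the rule. Notch3 and Dtx1 reached the limit on low genes mainly through the DN3-like cells, so a count of lower genes was partly set by that limit and each gene is given by its levels. Hes1 (chromosome 16, 30064384 to 30067796), a repressor induced by Notch, was at 40.4 CPM against 331 CPM in low-cycling cells and at 21.0 CPM against 84.9 CPM in cycling cells. Notch3 was at 16.5 CPM against 83.3 CPM and at 10.9 CPM against 30.5 CPM, and Dtx1, another target, at 23.9 CPM against 78.8 CPM and at 11.3 CPM against 26.6 CPM. The receptor Notch1 itself was at 127 CPM against 318 CPM and at 114 CPM against 172 CPM, so that it was 2-fold lower in low-cycling cells only. Nrarp and Hey1 were below 20 CPM. With stricter cycling classes, which left 21 low-cycling Cd8-positive cells, Hes1 stayed 2-fold lower at low cycling (-2.21), while Notch1 (-0.55) and Notch3 (-0.50) did not and Dtx1 turned direction (0.37). In cycling cells, Notch3 (-0.96) and Dtx1 (-0.78) were under 2-fold with a pseudocount of 10 CPM, and Dtx1 (-0.72) also at 5000 to 10000 UMIs.

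Transcripts of the γ chain locus were lower throughout. Tcrg-C1 (chromosome 13, 19214103 to 19217024) was at 169 CPM (136 to 207) against 924 CPM (888 to 961) in low-cycling cells and at 96.2 CPM against 361 CPM in cycling cells. Tcrg-C4 was at 143 CPM against 617 CPM and at 69.0 CPM against 222 CPM. Some of the γ constant genes are close copies of each other, so counts may be split between those. Of the γδ markers, Id3, an inhibitor of E proteins that rises after receptor signals, was at 204 CPM against 103 CPM in low-cycling cells (log2 ratio 0.98) and 166 CPM against 149 CPM in cycling cells. In cycling cells the log2 ratio of Id3 was 0.15 and turned to -0.25 after thinning.

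The other 6 of the 10 genes have less shared roles. Myl10, which encodes a myosin light chain and was abundant in DN3-like cells, was at 269.7 CPM against 1632 CPM in low-cycling cells and at 134 CPM against 484 CPM in cycling cells. Nkg7, a granule protein gene of cytotoxic cells, was at 12.8 CPM against 188 CPM and at 13.2 CPM against 56.1 CPM. Pld4, an enzyme of endolysosomes, was at 12.8 CPM against 182 CPM and at 5.84 CPM against 35.5 CPM, the largest ratio of the 10 in cycling cells (-2.42). Ccdc109b, now Mcub, encodes a subunit of the mitochondrial calcium channel and was at 42.2 CPM against 192 CPM and at 23.8 CPM against 95.2 CPM. The log2 ratios of the interferon-induced gene Ifitm2 were -1.70 and -1.86, and those of Akr1c13, an aldo-keto reductase, -1.93 and -1.61. Over 12 alternative settings, the weakest log2 ratios at low cycling were -0.28 for Akr1c13 and -0.70 for Ccdc109b, both under 2-fold.

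Il7r was lower in both strata. This gene, the interleukin-7 receptor on which DN cells depend, was at 23.9 CPM (12.7 to 40.8) against 56.6 CPM in low-cycling cells and at 11.3 CPM (7.57 to 16.2) against 32.3 CPM (27.6 to 37.7) in cycling cells. Of 6 genes kept among cytokine receptors and their signaling genes, 3 were 2-fold lower in low-cycling cells and 1, Il7r, in cycling cells (medians -1.004 and -0.43), beside 8.15% and 1.38% of all genes. With the stricter cycling classes, the log2 ratio of Il7r at low cycling turned from -1.21 to 0.24. Of the 6 genes kept among coreceptors and costimulatory genes, Cd28 and Cd81 were 2-fold higher in low-cycling cells and 0 in cycling cells, and Cd52 was 2-fold lower in both, beside 3.44% and 0% of all genes higher and 8.15% and 1.38% lower.

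Genes of the T cell receptor complex differed by less than 2-fold in cycling cells. Of 7 such genes kept, 2 were 2-fold lower in low-cycling cells (Cd3d and Cd3g) and 0 in cycling cells, with medians of -0.56 and -0.15, beside 8.15% and 1.38% of all genes. Cd3g was at 864 CPM against 2719 CPM and at 718 CPM against 1279.9 CPM. The β constant gene Trbc2 was at 2837 CPM against 2177 CPM and at 2952 CPM against 2534 CPM, and Trbc1, a near-identical copy, at 1233 CPM against 1818 CPM and at 1419.6 CPM against 1469 CPM. Trac, the α constant gene, was low in all of these, at 33.9 CPM (27.1 to 41.8) against 21.4 CPM (17.6 to 25.9) in cycling cells. Rag1, which cuts DNA in receptor rearrangement, was at 130.3 CPM against 176 CPM and at 63.1 CPM against 67.2 CPM, and Dntt, which adds bases at the junctions, at 1031 CPM against 1514 CPM and at 794 CPM against 905 CPM. Of the 5 recombination genes, Lig4 alone was 2-fold lower, in low-cycling cells. Among 9 proximal kinases and adaptors, 1 (Fyn) was 2-fold lower in low-cycling cells and 0 in cycling cells.

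Of 12 transcription factors of the T lineage at 20 CPM or more, Bcl11b, Runx1 and Myb were 2-fold lower in low-cycling cells and less than 2-fold lower in cycling cells, beside 8.15% and 1.38% of all genes. Runx3 was lower in both, but reached the limit through the DN3-like cells. Tcf7, a factor of T cell specification, was at 659 CPM (592 to 731) against 407 CPM (383 to 432) and at 544 CPM against 476 CPM, and Satb1, a chromatin organizer of DP cells, at 330.3 CPM against 238 CPM and at 333 CPM against 245 CPM. Bcl11b was at 308 CPM against 685 CPM and at 306 CPM against 377 CPM. Runx3, which serves the later CD8 lineage, was at 16.5 CPM against 36.4 CPM and at 6.23 CPM against 19.6 CPM. Of the E protein genes, Tcf3 was at 158 CPM against 201 CPM and at 185 CPM against 195 CPM and Tcf12 at 152 CPM against 182 CPM and at 124 CPM against 135 CPM, while Tcf4 was 2-fold lower in low-cycling cells only.

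Cyclins of the G1 phase went in different directions. Ccnd2 was at 77.1 CPM against 438 CPM in low-cycling cells and at 60.8 CPM against 142 CPM in cycling cells, and Ccnd3, the D cyclin that thymocytes need to expand, at 363 CPM against 220 CPM and at 512 CPM against 436 CPM. The inhibitor Cdkn1a was at 5.50 CPM against 85.9 CPM and at 5.06 CPM against 22.2 CPM. Of 12 such genes kept, 5 were 2-fold higher and 3 lower in low-cycling cells, and 0 higher and 2 lower in cycling cells. Of all genes, 3.44% were higher and 8.15% lower in low-cycling cells and 0% higher and 1.38% lower in cycling cells, which is the background for each list that follows as well. Among metabolic genes, 1 of 16 (Tfrc) was 2-fold higher in low-cycling cells and 0 in cycling cells (medians 0.47 and 0.11), and none of 9 genes of Myc and ribosome biogenesis was 2-fold different in either stratum. Of 8 chromatin regulators, 3 were 2-fold lower in low-cycling cells and 1, Dnmt3b, in cycling cells. Of 10 genes induced by receptor signals, Nfkbia and Dusp2 reached 20 CPM and neither was 2-fold different. Of 4 stress genes kept, 3 were 2-fold lower in low-cycling cells and 1, Jun, in cycling cells, at 23.8 CPM against 54.7 CPM. The part of dissociation stress in the other differences was not tested.

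Genes of the DP stage did not come up as a group. Of 10 kept, 1 (Itm2a) was 2-fold higher and 2 (Arpp21 and Aqp11) lower in low-cycling cells, and none was 2-fold different in cycling cells, with medians of -0.87 and -0.19. Arpp21 was at 268 CPM against 729 CPM and at 280.5 CPM against 313 CPM.

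No gene was 2-fold higher in both strata, but a few came close. These were picked after their values were seen, as genes 2-fold higher in low-cycling cells with the largest ratios in cycling cells. Phlda1 was at 45.9 CPM against 9.38 CPM in low-cycling cells and at 57.7 CPM against 28.6 CPM in cycling cells (log2 ratios 2.18 and 0.99). Colq had log2 ratios of 1.01 and 0.92, the β tubulin gene Tubb2a 2.29 and 0.90, Syt13 2.14 and 0.80, and the tetraspanin gene Cd81, which is also in the costimulation list, 1.39 and 0.80. H2-Q2 was at 101 CPM against 14.3 CPM and at 85.7 CPM against 46.8 CPM, but H2-Q genes are close copies and its reads may belong to others.

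**Figure D3:**
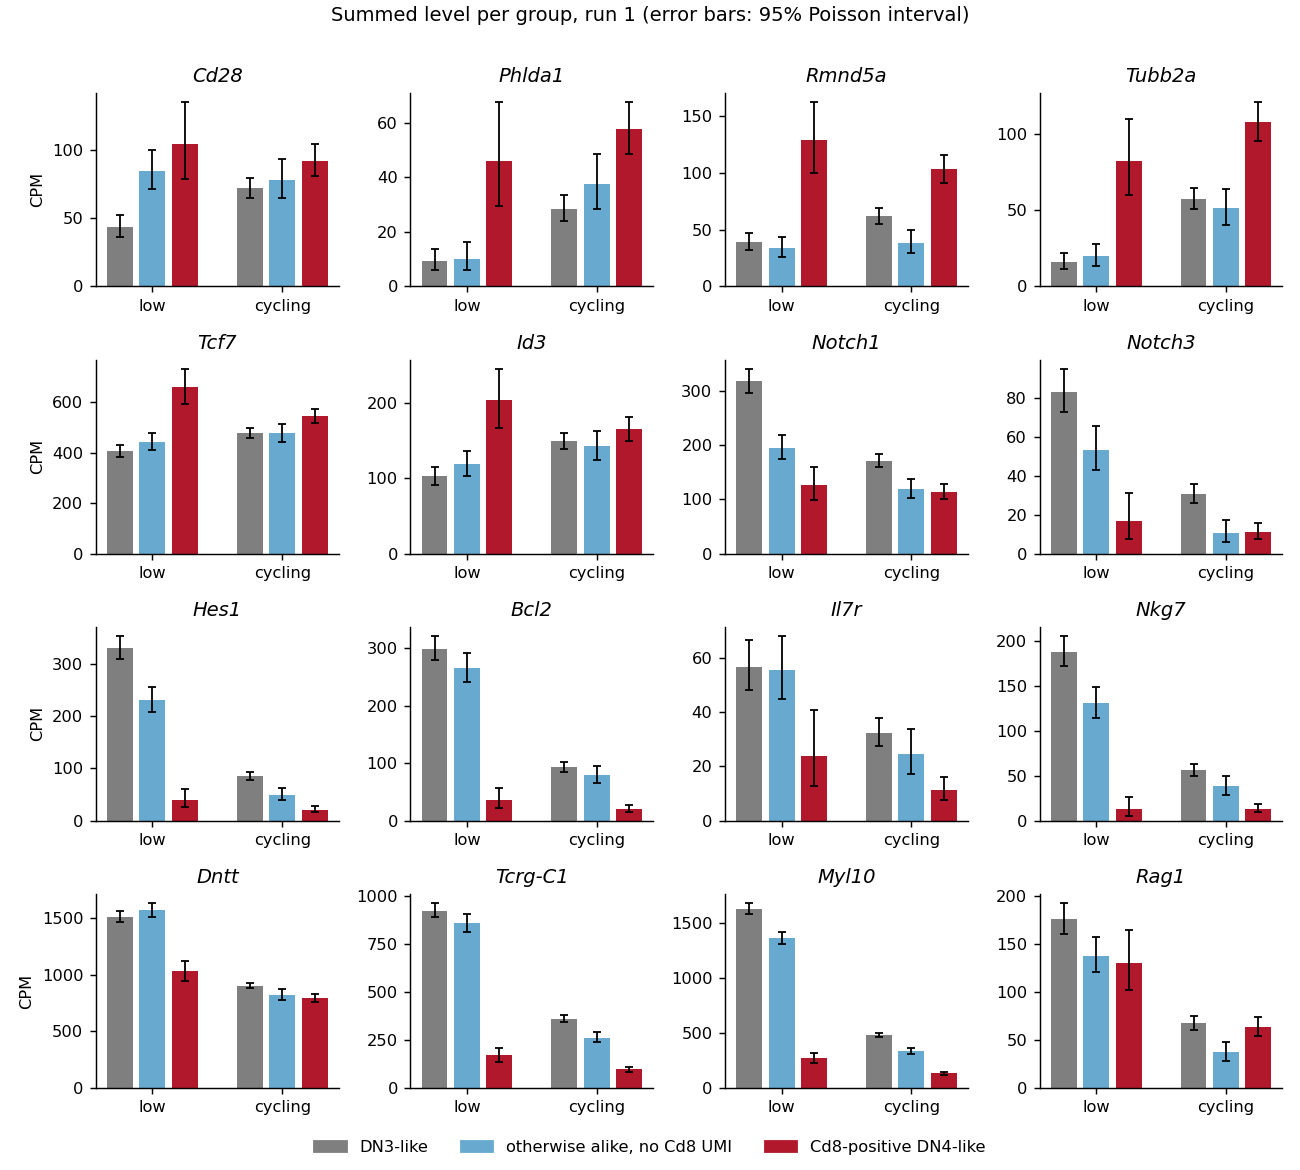
Summed levels in CPM of 16 genes in DN3-like (grey), Cd8-negative (blue) and Cd8-positive DN4-like cells (red), for low-cycling and cycling cells of the first run, with exact 95% Poisson intervals. Hes1, Bcl2, Nkg7, Il7r, Tcrg-C1 and Myl10 are lowest in the Cd8-positive cells in both strata, and Rmnd5a, Tubb2a and Phlda1 are highest.

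Cells that met the same limits with and without a Cd8 UMI were compared next. In the low-cycling strata, 139 of 5046 genes (2.75%) were at least 2-fold higher and 267 (5.29%) lower in Cd8-positive than in Cd8-negative cells, at medians of 5899 and 3074 UMIs per cell. These strata were not equal in the cell cycle either, since 11 of 16 DNA replication genes were 2-fold higher in the Cd8-positive cells (median 1.10). Among low-cycling cells of 5000 to 10000 UMIs, 125 genes were higher and 194 lower. They shared 38 of the 139 and 88 of the 267, and 16 of the genes counted turned direction. In the cycling strata, where the medians were 9634 and 9054 UMIs, 5 (0.0991%) were higher and 24 (0.476%) lower. These counts depended on the setting, with 154 and 238 after thinning and 50 and 57 at 5000 to 10000 UMIs. They were 24 and 21 where both groups had a Ptcra UMI, so an excess of lower genes is not read from them. Bcl2 led the genes lower in both, at 20.6 CPM against 79.0 CPM (65.5 to 94.5) in cycling cells, and was followed by Ccdc109b, Nkg7, Tcrg-C1 and Myl10, with log2 ratios in cycling cells between -1.46 and -1.32. Bcl2, Ccdc109b and Nkg7 were below 50 CPM in both strata of Cd8-positive cells. They reached the limit of 50 CPM for named genes through the Cd8-negative cells, so this ranking too is partly set by it. Hes1 was at 21.0 CPM against 49.4 CPM (38.9 to 61.9) and Il7r at 11.3 CPM against 24.4 CPM. Notch1 (114 against 119 CPM) and Notch3 (10.9 against 10.5 CPM) had overlapping intervals in cycling cells. At low cycling, their log2 ratios were -0.62 and -1.64. Of the 4 Notch genes kept against DN3-like cells, Dtx1 was not kept here, and Hes1 was the 1 of 3 at least 2-fold lower in cycling cells. Over 5 alternative settings, the weakest log2 ratios in cycling cells were -0.80 for Hes1, -0.66 for Il7r, -0.70 for Nkg7 and -0.98 for Ccdc109b. Each of these is under 2-fold.

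Of the 5 genes higher in cycling Cd8-positive cells, Rmnd5a, Itsn2, Gm13157 and Tubb2a are described. Rmnd5a and Tubb2a were named by the rule for genes at 50 CPM or more, since they were 2-fold higher in low-cycling cells too, and the other two were added after their values were seen. Itsn2 and Gm13157 were not higher in low-cycling cells, with log2 ratios of -0.08 and -0.46. Tubb2a (chromosome 13, 34074274 to 34078007) was at 108 CPM (95.6 to 121) against 51.4 CPM (40.6 to 64.1). Its log2 ratio of 1.06 in cycling cells was 0.75 at the lowest of 5 alternative settings, under 2-fold.

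Rmnd5a, the largest of the 5, is the neighbor of the Cd8 genes. It encodes a subunit of a ubiquitin ligase and lies at 71388634 to 71440637 on chromosome 6, 9.5 kb past the end of Cd8a and on the opposite strand. It was at 128 CPM (100.1 to 162) in low-cycling Cd8-positive cells, 33.7 CPM (25.5 to 43.8) in Cd8-negative and 39.0 CPM in DN3-like cells. In cycling cells it was at 103 CPM (90.8 to 116), 38.2 CPM (29.0 to 49.4) and 61.9 CPM. The promoter of Rmnd5a is shown because the gene was higher and lies next to the Cd8 genes that set the rule, at chr6:71440588-71440887 of GRCm38.p6 on the minus strand, with its 2 E boxes in capitals.

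Rmnd5a: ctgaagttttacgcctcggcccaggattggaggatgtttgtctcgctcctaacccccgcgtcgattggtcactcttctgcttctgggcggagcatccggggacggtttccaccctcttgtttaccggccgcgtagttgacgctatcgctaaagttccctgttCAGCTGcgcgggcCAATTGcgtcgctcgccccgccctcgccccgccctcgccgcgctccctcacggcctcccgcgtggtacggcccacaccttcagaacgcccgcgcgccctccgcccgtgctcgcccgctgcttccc

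At least 1 E box was in 72.3% of all promoters of this length. The other neighbors within 300 kb with a level in these cells were Krcc1 before Cd8b1 and Chmp3 and Kdm3a past Rmnd5a, looked at after the values of Rmnd5a were seen. Krcc1 was at 122 CPM (109 to 136) against 108 CPM (92.1 to 126) in cycling cells, and Chmp3 at 44.8 CPM against 47.4 CPM, so that the intervals of both overlapped. Cycling DN3-like cells had Krcc1 at 86.3 CPM and Chmp3 at 43.4 CPM, so that Krcc1 was also higher in the Cd8-positive cells than there (log2 ratio 0.49). Kdm3a was under 20 CPM.

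The link between Cd8 and Rmnd5a was also looked for in cells that the rule had not chosen. Among cycling DN3-like cells, Rmnd5a was at 99.9 CPM (87.8 to 113) in the 156 with a Cd8 UMI and at 25.3 CPM (19.5 to 32.2) in the 248 without one. Among cycling cells excluded for Trdc, it was at 102 CPM (94.2 to 111) in the 478 with and at 35.1 CPM (29.0 to 42.0) in the 316 without Cd8. Krcc1 was at 83.7 and 88.7 CPM in the DN3-like cells with and without Cd8, and Chmp3 at 43.7 and 43.2 CPM. Of the cycling DN3-like cells, 37.9% were among the most doublet-like cells of the run by Scrublet, a doublet caller, against 5.18% of cycling Cd8-positive DN4-like cells. Without those, Rmnd5a was at 118 CPM (98.2 to 141) where Cd8 was found, in 70 cells, and at 21.2 CPM (15.0 to 29.3) in the 181 others, an alternative chosen after seeing the data. Cells with Cd8 were deeper, at 15058 against 9835 UMIs in the DN3-like cells, and CPM corrects for this only on average. These cells come from the same library, so they are not replicates of the first comparison.

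**Figure D4:**
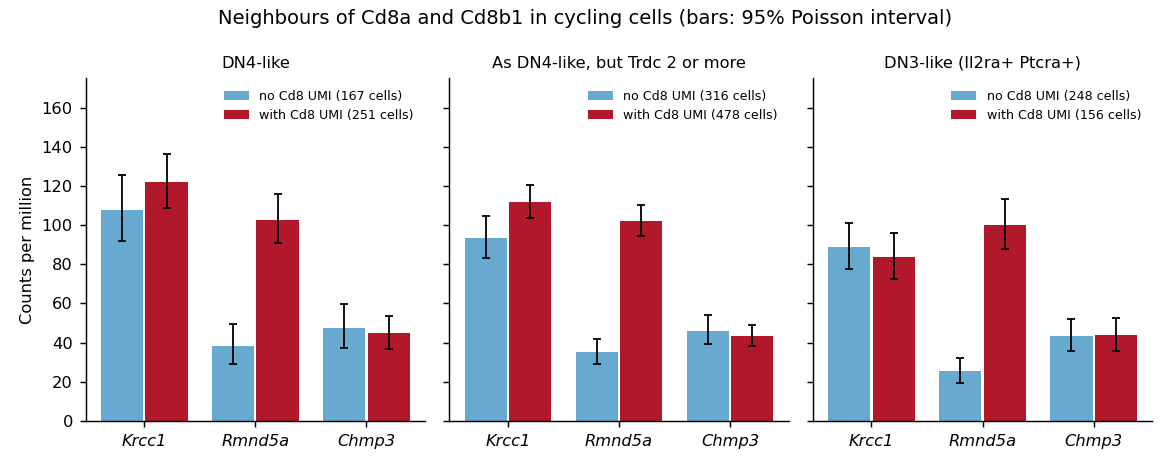
Levels in CPM of Rmnd5a and its neighbors Krcc1 and Chmp3 in cycling cells of the first run without (blue) and with (red) a Cd8 UMI, for DN4-like cells, for cells that differ from them by 2 or more Trdc UMIs, and for DN3-like cells, with exact 95% Poisson intervals. In each kind of cell Rmnd5a is higher with Cd8, and its intervals do not overlap, while those of Chmp3 do.

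Among the Cd8-positive DN4-like cells, genes differed with the number of Cd8 UMIs. Cycling cells were compared, since their medians were nearly equal at 9606, 9634 and 9726 UMIs for the 80 cells with 1 Cd8 UMI, the 83 with 2 to 3 and the 88 with 4 or more, and 9054 in the 167 cells with none. Rmnd5a was at 38.2 CPM with no Cd8 UMI and at 61.7, 101 and 139.6 CPM (117 to 166) in the 3 classes above it. Rag1 went from 36.9 CPM to 44.1, 64.8 and 77.9 CPM (61.0 to 98.1), and Bcl2l1 from 15.8 CPM to 26.4, 28.3 and 34.6 CPM. In the other direction, Bcl2 was at 79.0 CPM with none and at 23.9, 25.9 and 13.0 CPM (6.71 to 22.7) above it, so that most of its difference lay between 0 and 1 UMI. Il7r was at 24.4 CPM and then at 20.1, 10.6 and 4.33 CPM (1.18 to 11.1). Hes1 was at 49.4 CPM and then at 26.4, 20.04 and 17.3 CPM, and Nkg7 at 38.2 CPM and then at 16.4, 13.0 and 10.8 CPM. Among the 3 classes with Cd8, the intervals of 1 and of 4 or more UMIs were apart for Rmnd5a and Il7r and overlapped for Rag1, Bcl2l1, Bcl2, Hes1 and Nkg7.

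**Figure D5:**
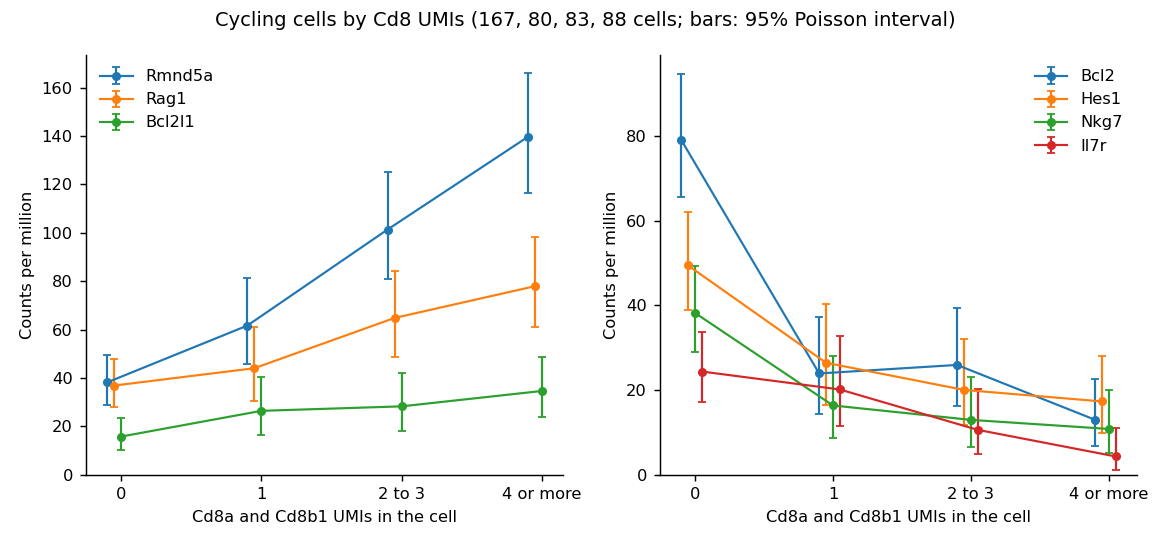
Levels in CPM (y axes) of 7 genes in cycling cells with 0, 1, 2 to 3 and 4 or more UMIs of Cd8a and Cd8b1 (x axes), with exact 95% Poisson intervals. Rmnd5a, Rag1 and Bcl2l1 are lowest at 0 and highest at 4 or more UMIs (left), and Bcl2, Hes1, Nkg7 and Il7r the reverse (right).

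Not all genes followed the number of Cd8 UMIs. Cd28 was at 78.4 CPM with none and at 78.0, 99.0 and 98.5 CPM above it, Tcf7 at 478 CPM and then at 508, 568 and 553 CPM, and Dntt at 826 CPM and then at 779, 846 and 759.8 CPM. Notch1 was between 107 and 121 CPM in the 4 classes. Mki67, which set the cycling class, was at 191, 181, 179 and 208 CPM. Between cells with Cd8a only and Cd8b1 only, Bcl2 (39.7 and 23.3 CPM) and Rmnd5a (82.1 and 95.1 CPM) had overlapping intervals.

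The 462 cells were also split by Ptcra. The 238 cells with a Ptcra UMI had Hes1 at 29.7 CPM and Bcl2 at 19.0 CPM, and the 224 without one had 18.9 and 28.1 CPM, respectively. The intervals of each gene overlapped. Rag1 was at 84.4 CPM (72.6 to 97.6) with Ptcra and 57.3 CPM (46.9 to 69.3) without it, so that its intervals were apart. Scrublet scores marked 4.33% (2.66% to 6.61%) of the 462 cells among the 700 most doublet-like of the run, against 22.0% (19.7% to 24.4%) of DN3-like cells and 37.9% of cycling ones. Without these cells, 1 gene was 2-fold higher and 73 lower in cycling Cd8-positive than in cycling DN3-like cells.

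Few cells met the rule in the other runs. The same limits took 24 of 8852 cells (0.271%, 0.174% to 0.403%) in the second run and 25 of 7511 (0.333%, 0.216% to 0.491%) in the third, where DN4 cells had not been sorted. Cells with a Cd8 UMI made up 29.1%, 0.960% and 2.61% of the 3 runs, and 18.8%, 1.04% and 2.16% of their DN3-like cells. Those that passed in the other runs did not have the same genes. Trac was at 30.4 CPM in the first run, 552 CPM in the second and 158 CPM in the third, Il7r at 13.98, 475 and 462 CPM, and Ccl5 at 16.2, 285 and 373 CPM. The Ccl5 counts of the first run came from 3 cells, those of the second from 4 and those of the third from 7. Ptcra was at 118, 38.0 and 80.5 CPM and Dntt at 869.6, 199.7 and 355 CPM. These cells were thus higher in Trac and Il7r and lower in Dntt than those of the first run. The comparison was not repeated in them apart from Rmnd5a, whose levels are given without a conclusion. Rmnd5a was at 28.5 CPM (5.88 to 83.4) in those of the second run and 24.8 CPM in its DN3-like cells, from 3 counts, and at 92.5 CPM (62.8 to 131) and 43.2 CPM in the third. Run and sort cannot be told apart here.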

How the data were processed

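Single-cell libraries had been made with the 10x 3′ kit (V2 or V3.1) from the sorted thymocytes of 3 runs, aligned to mm10 and counted with Cell Ranger by the authors. The deposited values are whole-number UMI counts per gene and cell, without normalization, of the cells that Cell Ranger called. Which Cell Ranger version was used for which run is not given in the sources used here for the first and second runs. Per the labels, R 3.6.3 and Seurat 2.3 were used further on, and nothing from them is used here. Cells were retained if 500 to 5000 genes were detected in them and mitochondrial genes made up no more than 7% of their counts.

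The cells, the gene lists and the bins of Cd8 UMIs were chosen with earlier results of these data known. Counts were summed per group in Python 3.11.15 (numpy 2.4.6, scipy 1.17.1, pandas 2.3.3), scaled to CPM and compared as log2 ratios with a pseudocount of 1 CPM, for genes at 20 CPM or more over the 4 groups compared. Each group is part of 1 library, so no test was made. The summation was tested on simulated counts. Named genes were those of 27 lists and, among genes at 50 CPM or more and 2-fold different in the same direction in both strata, the 10 largest by the smaller ratio in each direction (5 against Cd8-negative cells). Doublets were not removed, and removal of the 700 cells with the highest Scrublet score (scanpy 1.11.5) was an alternative. Others were the scaling, the pseudocount, the filter, a mean over cells, thinning to 2000 UMIs, other limits on the groups and on cycling, and a window of 5000 to 10000 UMIs. Gene positions are from GENCODE vM21 (GRCm38) and promoters from RefSeq (GRCm38.p6), matched by symbol for both genes shown. Some genes of the lists are not reported here.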

Additional observations from a re-analysis of the deposited data

How the results depend on the processing

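The number of Cd8-positive DN4-like cells was 302 with at least 2 Cd8 UMIs and 236 with Trdc at 0, and the share with 3 or more Mki67 and Top2a UMIs was 12.9% when cells were thinned before the rule. The share with both Cd8a and Cd8b1 was 7.14% at 2000 UMIs. Against DN3-like cells at low cycling, genes 2-fold higher and lower numbered 90 and 251 with a pseudocount of 10 CPM, 820 and 2458 with no filter, 282 and 758 after thinning, and 298 and 1066 with the stricter cycling classes, which left 21 cells with Cd8. Under these classes, 117 of the genes counted turned direction, among them Dtx1 (log2 ratio 0.37) and Il7r (0.24) at low cycling. In cycling cells, genes lower numbered 30 with that pseudocount, 514 with no filter, 320 after thinning, 108 against DN3-like cells without Cd8 and 209 at 5000 to 10000 UMIs. Genes higher, 0 at first, numbered 83 with no filter, 7 for the mean over cells, 34 after thinning, 1 without doublets, 11 against DN3-like cells without Cd8, 3 with at least 2 Cd8 UMIs, 1 with the stricter classes, 10 with DN3-like cells under the limits on Trdc, Cd44 and Cd79a, 33 at 5000 to 10000 UMIs and 1 without shared barcodes. Against Cd8-negative cells at low cycling, genes higher and lower numbered 240 and 629 after thinning and 263 and 470 where both groups had Ptcra. In cycling cells, they numbered 154 and 238 after thinning, 50 and 57 at 5000 to 10000 UMIs, and 24 and 21 where both had Ptcra. Thinning and the narrower groups left fewer counts per gene. The share of higher genes among those 2-fold different in the cycling DN3-like comparison was 0% and reached 13.9%, 15.2% and 13.6% with no filter, the limits on Trdc, Cd44 and Cd79a, and 5000 to 10000 UMIs, and 17.2% went to 39.3%, 46.7% and 53.3% against Cd8-negative cells after thinning, at 5000 to 10000 UMIs and with Ptcra. The median log2 ratio of all genes at low cycling was -0.20 with no filter and -0.14 with the stricter classes. No paired analysis was possible because each run is 1 library. Alternatives on the window of UMIs, Ptcra, the other limits and shared barcodes were chosen after seeing the data.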
